A study of Mus musculus with 6 samples.

Results

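The genes described here encode the enzymes of the TCA cycle between citrate and succinate that exist as isozymes or as alternative subunits, together with their extramitochondrial counterparts. They are Aco1, Idh1, Idh2, Idh3a, Idh3b, Idh3g, Sucla2, Suclg1 and Suclg2, a list fixed by name. All 9 were found among the 17831 genes of the table, and all 9 passed the filter on low counts that left 13623 genes for testing. The study sequenced bulk RNA of lung group 2 innate lymphoid cells (ILC2s) to compare cells with and without SIRPα, an inhibitory receptor for CD47. There were 3 libraries from WT mice and 3 from SIRPα KO mice (SIRPalphatm1Ynliu/J), age-matched and sex-matched at 6 to 8 weeks. The WT strain is given as CB57BL/6 in the sample labels and as CB57BL/6 J in the methods of the study. Mice of both groups had received 0.5 µg of rmIL-33 by the intranasal route on 3 days. On day 4 the CD45+ Lineage- ST2+ CD127+ cells were sorted, and they were then kept in culture, with 10 ng/mL of each of rmIL-2 and rmIL-7, for 18 h according to the results text of the study and 24 h according to a legend. The cDNA was amplified from 10 pg of RNA. The SIRPα KO allele is carried by every cell of the mouse and not by ILC2s alone.

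Aconitase converts citrate to isocitrate, the isocitrate dehydrogenases convert isocitrate to 2-oxoglutarate, and succinyl-CoA ligase converts succinyl-CoA to succinate while it makes a nucleoside triphosphate. The NAD-dependent dehydrogenase built from Idh3 subunits works in the mitochondrial cycle, whereas the NADP-dependent dehydrogenases Idh1 (cytosol and peroxisome) and Idh2 (mitochondrion) are separate enzymes that handle NADPH. Aco1 is the cytosolic aconitase, which without its iron-sulphur cluster binds RNA as an iron regulatory protein. Succinyl-CoA ligase has a common alpha subunit, Suclg1, that pairs with Sucla2 in the ADP-forming enzyme or with Suclg2 in the GDP-forming enzyme.

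The libraries held 13980499 to 19051507 reads on genes. WT replicates 1 and 2 are labelled 37 and 37V1, and replicates 2 and 3 of SIRPα KO are labelled 44 and 44V1, so each group may hold only 2 distinct samples. The labels do not say that the libraries came from separate mice or cultures, and p values then measure only the spread between these libraries. WT replicate 3 stood apart, with a median absolute log2 difference of 0.562 to 0.592 from the SIRPα KO libraries, against 0.298 to 0.366 for WT replicates 1 and 2. All 14 ILC2 markers were detected. Their summed level was 15489 to 16650 CPM (normalized counts scaled to library size) in WT and 21299 to 21842 CPM in SIRPα KO. Il5 alone was at 9192 ± 661 CPM (mean ± SD, n = 3) in WT and 12951 ± 332 CPM in SIRPα KO. Il2ra was at 1841 ± 377 and 3451 ± 30.2 CPM. Gata3 (946 and 1012 CPM) and Rora (224 and 239 CPM) overlapped between the groups. Called in edgeR were 3 higher (Ptprc, Il2ra and Il5) and 2 lower (Id2 and Thy1), against 11.7% of all genes. Of those called lower, Id2 was at 1269 ± 137 CPM (mean ± SD, n = 3) in WT, against 811 ± 34.8 CPM in SIRPα KO. Thy1 was at 16.1 ± 6.04 CPM (mean ± SD, n = 3) in WT, against 3.86 ± 0.266 CPM in SIRPα KO. B cell markers were present too, with a summed level of 216 to 479 CPM in WT and 23.1 to 84.6 CPM in SIRPα KO. Of the 6 tested, 5 were called lower in SIRPα KO, against 5.81% of all genes. Pax5, and the T cell and granulocyte markers Cd8a and S100a9, were not among the 17831 genes of the table. Summed levels of T cell markers were 18.6 to 23.5 CPM in WT and 4.77 to 5.56 CPM in SIRPα KO, and those of macrophage markers 41.2 to 135 CPM and 75.5 to 118 CPM. The summed NK cell markers were at 7.42 to 9.67 CPM in WT and 0.383 to 0.682 CPM in SIRPα KO, epithelial markers at 45.0 to 73.5 CPM and 6.20 to 72.8 CPM, and granulocyte markers at up to 0.356 CPM and 0.930 CPM. The part of these cells in the results below was not tested. Reads on Sirpa itself numbered 149, 96 and 73 in WT, against 48, 85 and 28 in SIRPα KO. In normalized counts the groups did not overlap, at 4.83 to 8.57 CPM in WT and 1.74 to 4.46 CPM in SIRPα KO (log2 fold change -1.12, edgeR adjusted p = 0.115). Which exons the allele deletes is not given in the sources used here, so these reads do not check the genotype.

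Of the 9 genes, 2 were called higher in SIRPα KO and 0 lower, which were Idh3a, the catalytic subunit of the NAD-dependent dehydrogenase, and Suclg2, the GDP-forming beta subunit. Over all genes tested, 11.7% were called, 5.94% as higher and 5.81% as lower in SIRPα KO, by edgeR's quasi-likelihood test at an adjusted p under 0.05 (Benjamini-Hochberg over 13623 genes). At an unadjusted p under 0.05, Sucla2, the ADP-forming beta subunit, joined them to make 3 of 9, against 32% of all genes. The WT and SIRPα KO libraries did not overlap for 4 of the 9 genes, against 42.8% of all genes. SIRPα KO was above WT for Idh3a, Sucla2 and Suclg2 (21.6% of all genes) and below WT for Suclg1 (21.2%). The log2 fold change was above 0 for 6 of 9 genes, against 48.4% of all genes. Its median was 0.24 over the 9 and -0.025 over all genes tested. In bulk RNA, fewer cells of a type cannot be told apart from less RNA per cell.

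**Figure D1:**
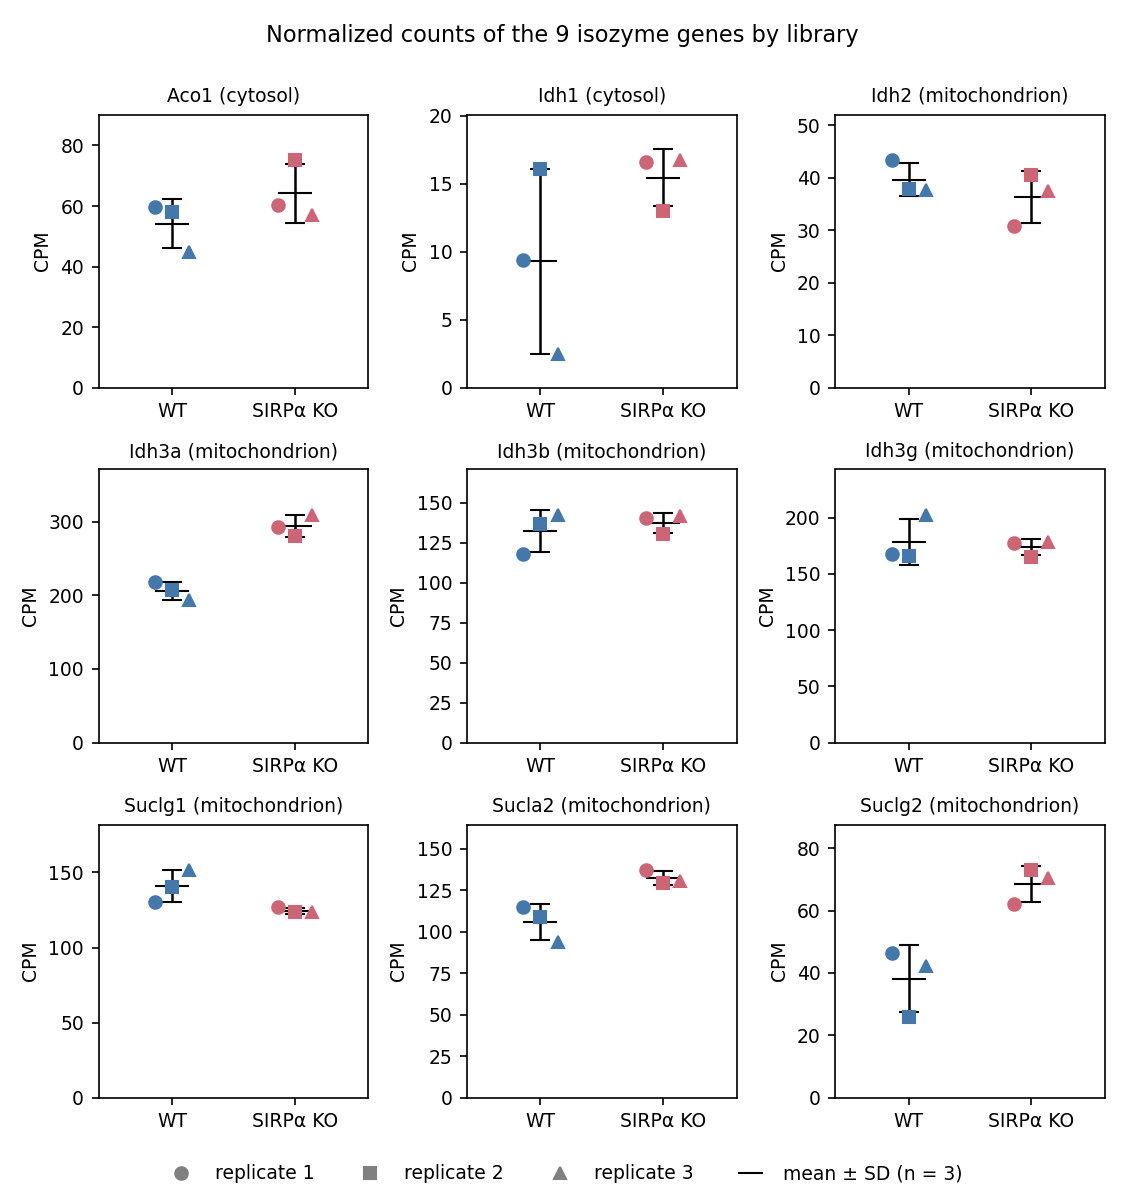
Normalized counts of each isozyme gene, in CPM on a linear axis from 0, in 3 WT and 3 SIRPα KO libraries; symbols give the replicate and bars the mean ± SD. Idh3a, Sucla2 and Suclg2 were higher in all 3 SIRPα KO libraries than in any WT library, Suclg1 was lower in all 3, and the groups overlapped for the other 5 genes.

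Aco1 lies on chromosome 4 of mm10 from 40143081 to 40198338 (plus strand). It had 59.6, 58.0 and 44.9 CPM in WT replicates 1, 2 and 3 and 60.5, 75.2 and 56.9 CPM in the SIRPα KO replicates. WT replicate 3 was the lowest library and SIRPα KO replicate 2 the highest, and the other 4 lay close together across genotypes. The log2 fold change was 0.24 (SE 0.17), with an adjusted p of 0.362 in the edgeR test. It was 0.13 without WT replicate 3 and 0.12 without SIRPα KO replicate 2. With an offset for transcript length and GC content it was 0.090 (edgeR adjusted p = 0.720).

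The NADP-dependent dehydrogenases did not pass the test in either compartment. Idh1 is on chromosome 1 from 65158616 to 65186500 and Idh2 on chromosome 7 from 80094846 to 80115392, both on the minus strand. The genes were compared by sequence because reads from shared stretches could be assigned to either of them. Their coding sequences were 69.2% identical over 1226 aligned bases in GENCODE M21. The longest run of bases they shared was 19 bases long, inside coding exons of both, and is shown in capitals on its coding strand, at chr1:65171201-65171219 (minus strand) and chr7:80100824-80100842 (minus strand).
Idh1 and Idh2: ACCAATGACCAGGTCACCA
No other gene had a transcript of at least 95% identity over at least 200 bases with either of them.

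Idh1 had few reads, with 163, 226 and 37 in WT, against 260, 248 and 270 in SIRPα KO. In CPM these were 9.37, 16.1 and 2.45 in WT and 16.6, 13.01 and 16.7 in SIRPα KO. WT replicate 2 lay within the SIRPα KO range, and WT replicate 3 was far below every other library. Mean levels of Idh1 (± SD, n = 3) were 9.30 ± 6.81 CPM in WT, against 15.5 ± 2.12 CPM in SIRPα KO. The fitted log2 difference of 0.73 (SE 0.55) had an adjusted p of 0.385 in the edgeR test. Its size depended on which WT library was kept, since it was 0.29 without WT replicate 3 (adjusted p = 0.4996) and 1.38 without WT replicate 2 (adjusted p = 0.112), both from edgeR.

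Idh2 had 43.4, 37.8 and 37.7 CPM in the WT replicates and 30.9, 40.5 and 37.5 CPM in the SIRPα KO replicates. The groups overlapped, with SIRPα KO replicate 1 below and WT replicate 1 above the other 4 libraries. The log2 fold change of Idh2 was -0.13 (SE 0.16, edgeR adjusted p = 0.621).

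The log2 ratio of Idh1 to Idh2 reads within a library, which does not depend on library scaling, was -2.21, -1.23 and -3.93 in WT, against -0.89, -1.63 and -1.16 in SIRPα KO. It overlapped between the groups. The mean difference was 1.23 on the log2 scale (two-sided exact permutation p = 0.2, adjusted p = 0.257 over 9 ratios). Leaving out WT replicate 3 gave 0.49, leaving out WT replicate 2 gave 1.84, and the difference was 0.77 with an offset for transcript length and GC content. Per kb of transcript, Idh1 made up 14.4% ± 9.84 (SD, n = 3) of the pair in WT and 24.6% ± 4.72 (SD, n = 3) in SIRPα KO, so that Idh2 was the more abundant transcript in all 6 libraries.

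Among the Idh3 subunits, the catalytic subunit rose while both other subunits stayed within the spread of the libraries, a contrast that was not seen with an offset for transcript length and GC content (log2 fold changes of 0.34 for Idh3a, 0.31 for Idh3b and 0.31 for Idh3g). Idh3a is on chromosome 9 from 54586334 to 54604661 (plus strand). It had 218, 207 and 193 CPM in the WT replicates and 292, 279.7 and 309 CPM in the SIRPα KO replicates. The lowest SIRPα KO library was well above the highest WT library. Idh3a rose from 206 ± 12.2 CPM (SD, n = 3) to 294 ± 14.6 CPM (SD, n = 3), a log2 fold change of 0.51 (SE 0.10), or 1.43-fold, with an edgeR adjusted p of 0.0252. The call was lost without any 1 of the SIRPα KO replicates (edgeR adjusted p = 0.117 to 0.127) and when libraries of one code were summed (0.142), and over all alternatives the adjusted p ran from 9.09e-05 in DESeq2 to 0.142.

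Idh3b and Idh3g encode the non-catalytic subunits, which regulate the enzyme. Idh3b is on chromosome 2 from 130279309 to 130284547 (minus strand), 647 kb from Sirpa, and shares 5 exonic bases with Nop56 on the opposite strand. Idh3g is on the X chromosome from 73778963 to 73786897 (minus strand). Idh3b had 118, 137 and 142 CPM in the WT replicates and 140.4, 130.4 and 142 CPM in the SIRPα KO replicates. Idh3g had 168, 166 and 202 CPM in WT and 177, 165 and 179 CPM in SIRPα KO. For each gene the SIRPα KO values lay inside or within a few CPM of the WT range. The log2 fold changes were 0.054 (SE 0.12, adjusted p = 0.785) for Idh3b and -0.040 (SE 0.12, adjusted p = 0.842) for Idh3g in the edgeR test, and each of them changed sign under 3 of the alternative settings.

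The ratio of the catalytic to either regulatory subunit was higher in every SIRPα KO library than in any WT library, before any correction for transcript length. The log2 ratio of Idh3a to Idh3b reads was 0.89, 0.59 and 0.44 in WT, against 1.06, 1.10 and 1.13 in SIRPα KO. The log2 ratio of Idh3a to Idh3g reads was 0.38, 0.32 and -0.067 in WT and 0.72, 0.76 and 0.79 in SIRPα KO. In both ratios the SIRPα KO libraries lay closer to each other than the WT libraries did. The differences were 0.46 and 0.55 on the log2 scale, each with a two-sided exact permutation p of 0.1, the smallest that 3 against 3 allows, and 0.15 after adjustment over the 9 ratios. With the offset they were 0.026 and 0.025. The log2 ratio of Idh3b to Idh3g differed by 0.092 (exact permutation p = 0.4), and all 6 libraries lay between -0.51 and -0.27. Idh3a was also higher relative to Idh2, the NADP-dependent mitochondrial enzyme. Its log2 ratio to Idh2 was 2.33, 2.45 and 2.35 in WT and 3.24, 2.79 and 3.04 in SIRPα KO, a difference of 0.65 (exact permutation p = 0.1), and of 0.19 with an offset for transcript length and GC content (exact permutation p = 0.4). The coding sequences of Idh3a, Idh3b and Idh3g were 59.3% to 62.0% identical in pairs, with shared runs of at most 17 bases.

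For succinyl-CoA ligase, both beta subunits were higher and the common alpha subunit lower in each SIRPα KO library than in any WT library, and of these only Suclg2 passed the test. With the length and GC offset Suclg1 was no longer lower, at a log2 fold change of 0.051. Suclg2 and Suclg1 are both on chromosome 6, Suclg2 from 95473009 to 95718800 (minus strand) and Suclg1 from 73248382 to 73276911 (plus strand). Sucla2 is on chromosome 14 from 73525319 to 73596142 (plus strand).

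Suclg2 had 46.3, 26.0 and 42.3 CPM in the WT replicates and 62.1, 73.0 and 70.3 CPM in the SIRPα KO replicates. WT replicate 2 was the lowest library, with 365 reads, and the lowest SIRPα KO library was above the highest WT library. Suclg2 rose from 38.2 ± 10.8 CPM (SD, n = 3) to 68.5 ± 5.70 CPM (SD, n = 3). Its log2 fold change of 0.84 (SE 0.22), or 1.79-fold, had an edgeR adjusted p of 0.0487. The call was lost in 9 of the 15 alternative fits. Among these were the fits without WT replicate 1 (edgeR adjusted p = 0.0509) or without any 1 of the SIRPα KO replicates (0.147 to 0.178), the fit with codes summed (0.139), and the length and GC offset, which left a log2 fold change of 0.49 (0.255), in a range over all alternatives of 0.00417 to 0.255. A processed pseudogene on the X chromosome, Gm15163, matched the transcript at 98.9% identity over 1302 bases. Its own count was 0.73% to 1.38% of that of Suclg2, and adding its reads left the log2 fold change at 0.84.

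Sucla2 had 115, 109 and 94.0 CPM in the WT replicates and 137, 129 and 131 CPM in the SIRPα KO replicates. WT replicate 3 was the lowest, and the groups did not overlap. The log2 fold change of Sucla2 was 0.32 (SE 0.12), with an unadjusted p of 0.0289 and an adjusted p of 0.115 in the edgeR test, and 0.16 with the offset (edgeR adjusted p = 0.331). Suclg1 had 130.5, 140.3 and 152 CPM in WT and 127, 124 and 123 CPM in SIRPα KO. Its SIRPα KO libraries lay close together, just under the lowest WT library. The log2 fold change of Suclg1 was -0.18 (SE 0.11, edgeR adjusted p = 0.304).

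The log2 ratio of Suclg1 to Suclg2 reads was 1.49, 2.43 and 1.84 in WT, against 1.03, 0.76 and 0.81 in SIRPα KO. That of Suclg1 to Sucla2 was 0.18, 0.37 and 0.69 in WT and -0.11, -0.066 and -0.082 in SIRPα KO. Relative to the alpha subunit, both beta subunits were thus higher in every SIRPα KO library, before any correction for transcript length. The differences were -1.06 for Suclg1 to Suclg2 and -0.50 for Suclg1 to Sucla2 on the log2 scale (two-sided exact permutation p = 0.1 for each, adjusted p = 0.15). With an offset for transcript length and GC content, that of Suclg1 to Suclg2 was -0.50 (exact permutation p = 0.2). That of Suclg1 to Sucla2 was then -0.11 (exact permutation p = 0.4). Between the beta subunits, the log2 ratio of Sucla2 to Suclg2 was 1.31, 2.07 and 1.15 in WT and 1.14, 0.83 and 0.89 in SIRPα KO. The groups were separated by WT replicate 3 and SIRPα KO replicate 1, which nearly met, and the difference of -0.56 (exact permutation p = 0.1) fell to -0.28 without WT replicate 2. It was -0.39 with the length and GC offset (exact permutation p = 0.4). Per kb of transcript, the GDP-forming subunit made up 19.2% ± 4.93 (SD, n = 3) of the beta subunits in WT and 25.5% ± 2.18 (SD, n = 3) in SIRPα KO, and Sucla2 was the more abundant in all 6 libraries.

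**Figure D2:**
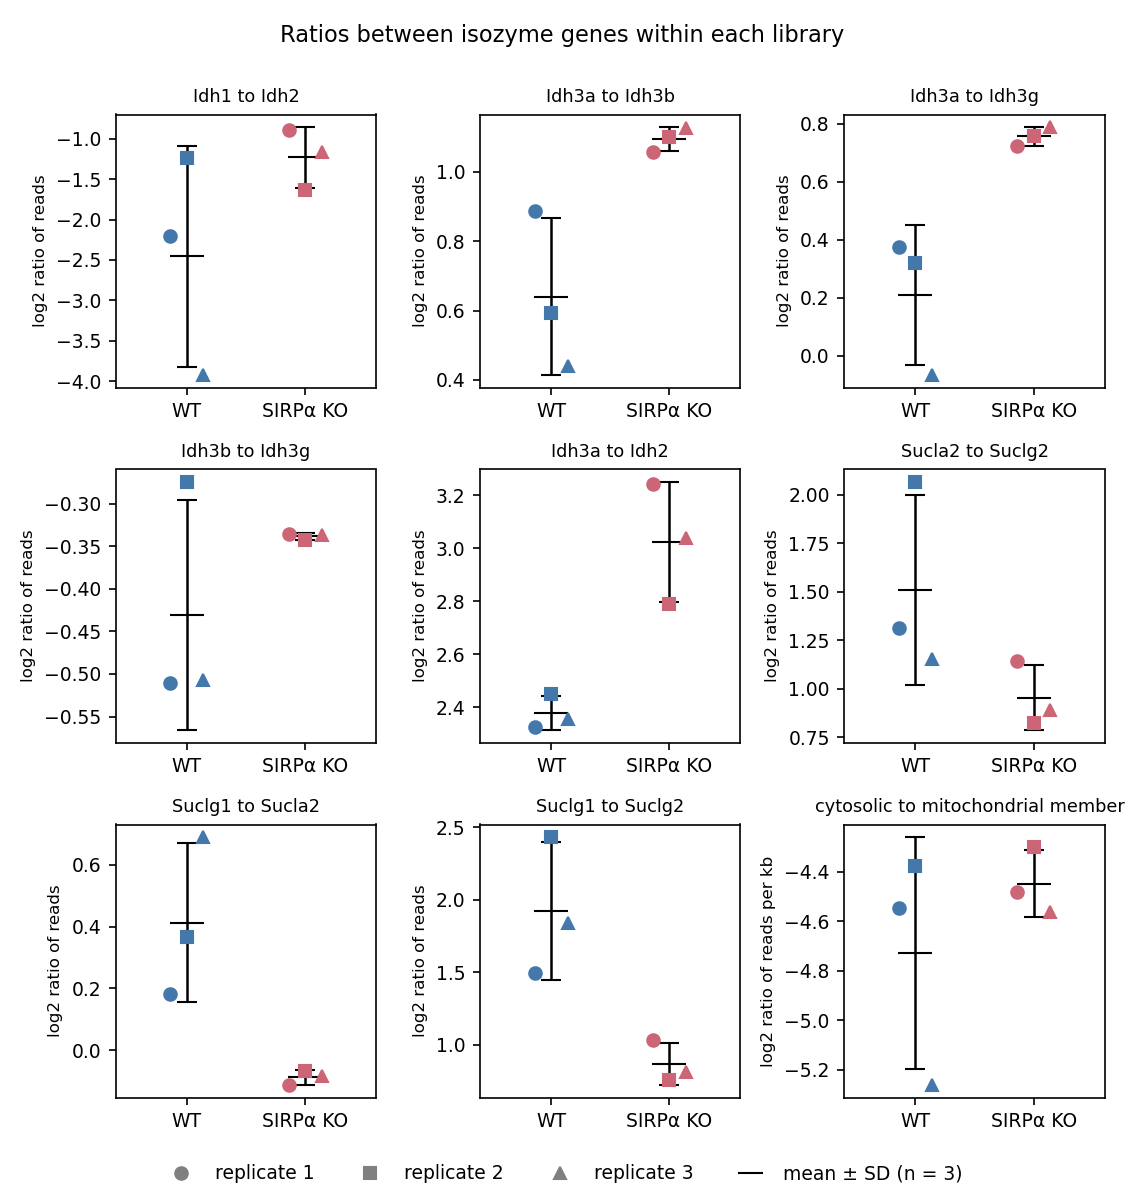
Log2 ratio of reads between isozyme genes in each library, with the cytosolic to mitochondrial panel per kb of transcript; points are 3 WT and 3 SIRPα KO libraries, symbols give the replicate and bars the mean ± SD, and the axes do not start at 0. The groups did not overlap in 6 of the 9 ratios, which had exact permutation p values of 0.2 to 1.0 with the length and GC offset, and the SIRPα KO libraries had the smaller SD in all but Idh3a to Idh2.

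The sequences around the start sites of both beta subunit genes are shown because all 3 SIRPα KO libraries lay over the WT range for both paralogs and under it for their shared partner. They are RefSeq sequences of GRCm38.p6, the assembly that mm10 represents, from 250 bases before to 50 bases after the start, on the strand of the gene. Capitals mark matches to GGGCGG, the core of the GC box, on either strand. The Suclg2 window lies at chr6:95718797-95719096 (minus strand) and the Sucla2 window at chr14:73552536-73552835 (plus strand), the latter inside the span of the GENCODE gene.
Suclg2: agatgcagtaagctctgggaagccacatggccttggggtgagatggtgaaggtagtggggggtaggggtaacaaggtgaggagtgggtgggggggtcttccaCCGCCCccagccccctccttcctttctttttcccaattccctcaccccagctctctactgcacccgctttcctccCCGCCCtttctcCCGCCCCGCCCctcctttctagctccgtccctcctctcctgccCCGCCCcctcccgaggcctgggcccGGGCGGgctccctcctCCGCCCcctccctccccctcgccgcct
Sucla2: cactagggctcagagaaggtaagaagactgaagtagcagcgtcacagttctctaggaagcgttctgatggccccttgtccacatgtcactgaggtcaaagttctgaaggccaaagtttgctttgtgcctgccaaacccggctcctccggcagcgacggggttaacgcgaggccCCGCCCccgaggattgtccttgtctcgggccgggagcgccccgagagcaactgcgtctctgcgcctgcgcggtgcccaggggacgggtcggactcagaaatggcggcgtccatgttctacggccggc
The Suclg2 window held 7 matches, some of them overlapping, and the Sucla2 window 1. A match was present in 35.7% of the 32851 promoters of the table and in 5 of the 8 isozyme genes with an entry, which were Aco1, Idh1, Idh2, Sucla2 and Suclg2. The letters CCGGAAG, a core bound by ETS factors, were present for Idh3b and Idh3g and in 8.9% of all promoters. GCGCATGC, part of the NRF1 motif, and AAGGTCA, bound by oestrogen-related receptors, were searched on both strands and found in none of the 8, against 2.7% and 4.7% of all promoters. The coding sequences of Sucla2 and Suclg2 were 61.2% identical, with a longest shared run of 12 bases.

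Levels can be compared between genes only per length, and are given here as CPM per kb of the longest protein-coding transcript. In WT the order was Idh3g (134 ± 15.5), Suclg1 (92.7 ± 6.97), Idh3b (81.9 ± 8.01), Idh3a (79.8 ± 4.73), Sucla2 (47.5 ± 4.82), Idh2 (22.7 ± 1.84), Aco1 (14.1 ± 2.11), Suclg2 (11.3 ± 3.20) and Idh1 (4.04 ± 2.96 CPM per kb; SD, n = 3 for each). Suclg1 and Idh3b, Idh3b and Idh3a, and Aco1 and Suclg2 overlapped in range, although Suclg1 was above Idh3b within each of the 3 libraries. In SIRPα KO, Idh3a was second at 114 ± 5.65 CPM per kb and Suclg2 seventh at 20.3 ± 1.69 CPM per kb (SD, n = 3), next to Idh2 at 20.8 ± 2.82 CPM per kb, with which it overlapped. The other neighbours that overlapped in SIRPα KO were Idh3b with Suclg1 and Suclg2 with Aco1. The order depends on the length used. Per kb of coding sequence Idh3a was first in SIRPα KO at 254 CPM per kb, and in WT its mean of 178 CPM per kb was the highest but overlapped with Idh3g. Suclg2 was above Idh2 in SIRPα KO on that scale and overlapped with it in WT.

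By compartment, the 7 mitochondrial genes summed to 470 ± 18.2 CPM per kb in WT and 512 ± 13.3 CPM per kb in SIRPα KO (SD, n = 3), a ratio of means of 1.09. The 2 cytosolic genes, Aco1 and Idh1, summed to 18.2 ± 4.84 CPM per kb in WT and 23.5 ± 1.62 CPM per kb in SIRPα KO (SD, n = 3), a ratio of 1.29. The log2 ratio of the cytosolic to the mitochondrial sum was -4.55, -4.38 and -5.26 in WT, against -4.48, -4.30 and -4.56 in SIRPα KO. WT replicate 3 alone lay apart from the other 5 libraries. The difference of 0.28 was not beyond the spread of the libraries (two-sided exact permutation p = 0.5), and it was 0.014 without WT replicate 3.

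Fold changes in these libraries followed transcript length. Over deciles of transcript length, taken among genes at an average log2 CPM of 3 or more, the median went from -0.56 (204 to 1208 bases) to 0.49 (the longest). The isozyme genes were ordered in part the same way. The 4 with the shortest transcripts, Idh3g (1331 bases), Suclg1 (1519), Idh3b (1616) and Idh2 (1745), had log2 fold changes of -0.18 to 0.054. The 5 longer ones, Sucla2 (2229), Idh1 (2302), Idh3a (2580), Suclg2 (3367) and Aco1 (3832), had log2 fold changes of 0.24 to 0.84. GC content differed too, at 50.2% to 55.4% in the 4 shorter genes and 43.2% to 46.9% in the longer ones except Aco1 (52.1%). Length and GC content were not tested apart.

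With an offset fitted on transcript length and GC content, all 9 log2 fold changes were above 0, with a median of 0.31 against -0.022 for all genes. The 4 shorter genes moved up, by 0.23 to 0.35, and the 5 longer genes moved down. Of the Idh3 subunits, Idh3a had an SE of 0.077 (edgeR adjusted p = 0.0392), Idh3b of 0.099 (adjusted p = 0.0964) and Idh3g of 0.079 (adjusted p = 0.0524). The exact permutation p was 1.0 for the ratio of Idh3a to Idh3b and 0.7 for that of Idh3a to Idh3g. Suclg2 was at 0.49 (SE 0.25, edgeR adjusted p = 0.255), and Suclg1 to Suclg2 differed by -0.50 (exact permutation p = 0.2). Idh3a was the only one of the 9 called, against 1134 of all 13496 genes in that fit. What sets the relation with length was not tested.

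**Figure D3:**
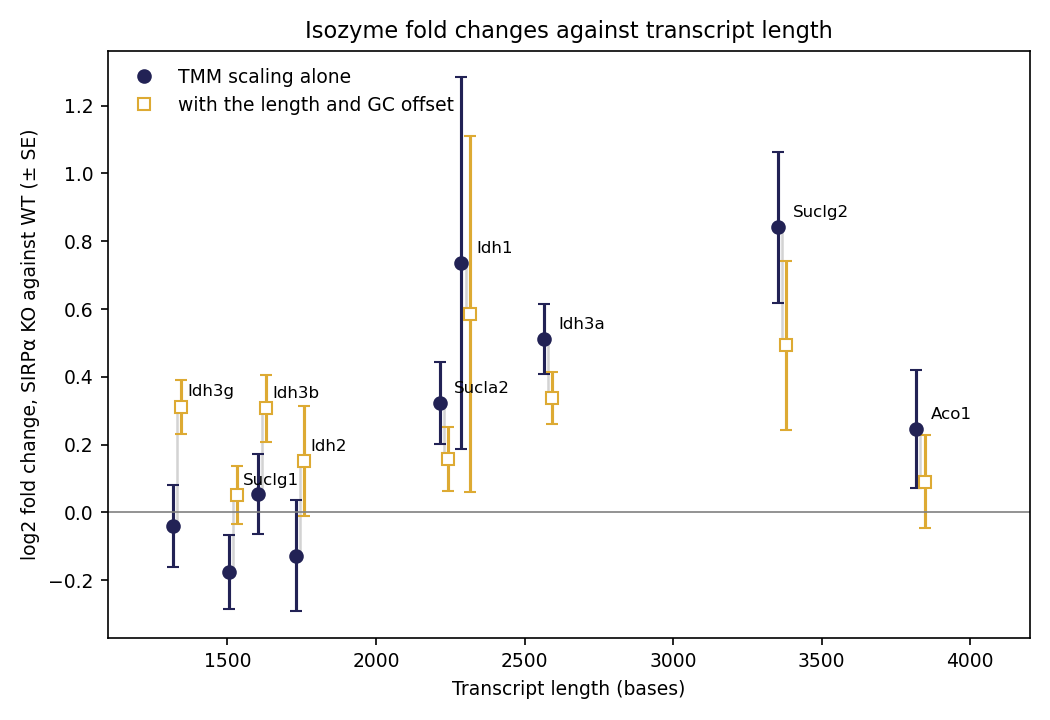
Log2 fold change of each isozyme gene (± SE) against transcript length in bases, with TMM scaling alone (filled circles) and with the length and GC offset (open squares); paired points are drawn slightly to each side of their length. Idh3g, Suclg1, Idh3b and Idh2 moved up with the offset and the other 5 genes moved down.

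In the remainder of the cycle and the pyruvate dehydrogenase complex that feeds it, 2 of 15 genes tested were called, both higher in SIRPα KO (11.7% of all genes called in either direction). They were Pdha1, a catalytic subunit of pyruvate dehydrogenase, with a log2 fold change of 0.50 (SE 0.12, adjusted p = 0.0377), and Dlat, the acetyl-transferring subunit, with 0.62 (SE 0.13, adjusted p = 0.0257, both from edgeR). Idh3a at 0.51 had a log2 fold change of like size. At an unadjusted p under 0.05 there were 12 of 15, against 32% of all genes. Without any 1 of the SIRPα KO replicates there were 5 or 6 of 15 (2935 to 3183 of all genes). With codes summed there were 5 (3359 of all 14581 genes), and with the length and GC offset 7 (3548 of all 13496). SIRPα KO was above WT without overlap for 9 of the 15 (21.6% of all genes) and below for 4 (21.2%). Cs, which makes citrate one step before aconitase, was at 0.23 (edgeR adjusted p = 0.120). Ogdh, which uses the 2-oxoglutarate that the dehydrogenases make, was at 0.46 (edgeR adjusted p = 0.133). After succinyl-CoA ligase, the log2 fold changes were 0.45 for Sdha and 0.31 for Fh1. They were -0.31, -0.48 and -0.34 for Sdhb, Sdhc and Sdhd, the other succinate dehydrogenase subunits. None of these genes passed the threshold in the edgeR fit of the report. DESeq2 called 8 of the 15, among them Sdha (adjusted p = 0.0370), Fh1 (0.0332), Sdhc (0.0151) and Mdh1, against 3118 of 13623 genes. Without WT replicate 3, edgeR called 11 of the 15, 8 higher and 3 lower, against 2606 of 14143 genes. These included Cs, Ogdh, Sdha, Sdhb, Sdhc, Fh1 and Mdh1. The malate dehydrogenases were at -0.34 for the cytosolic Mdh1 and -0.14 for the mitochondrial Mdh2. With the length and GC offset, neither Pdha1 (edgeR adjusted p = 0.0806) nor Dlat (0.162) was called, and Sdhc (-0.71, adjusted p = 0.0459) and Mdh1 (-0.43, adjusted p = 0.0332) were called lower.

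**Figure D4:**
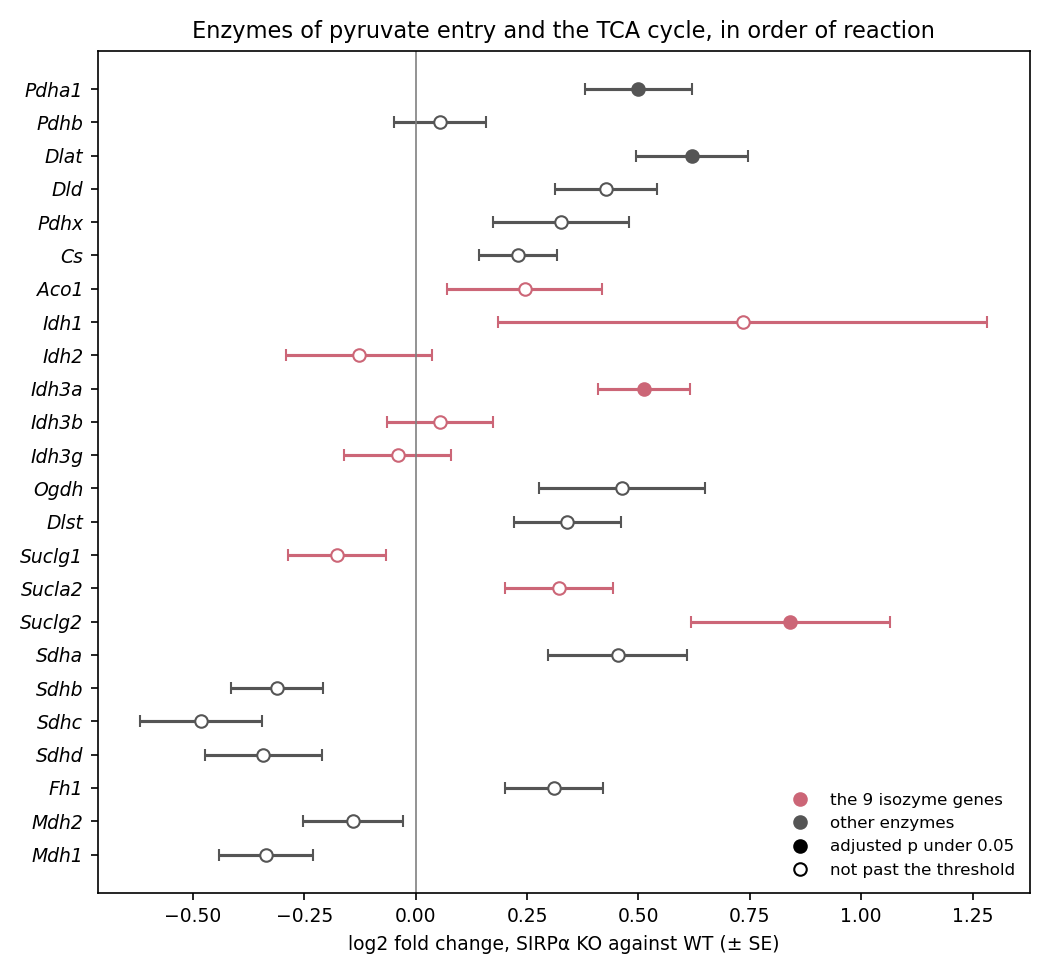
Log2 fold change (± SE) of SIRPα KO against WT for the enzymes of pyruvate entry and the TCA cycle, from top to bottom in order of reaction; the 9 isozyme genes are in red, other enzymes in grey, and filled points had an edgeR adjusted p under 0.05. Pdha1, Dlat, Idh3a and Suclg2 were filled, all to the right of 0. Sdhb, Sdhc, Sdhd, Mdh1, Mdh2 and the isozyme genes Idh2, Idh3g and Suclg1 lay to the left.

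Among genes one step from the isozymes, 4 of 24 tested were called, 3 higher and 1 lower, against 11.7% of all genes. Around Aco1, iron handling genes gave 3 of the calls. Ireb2, which encodes the other iron regulatory protein, had 23.3, 25.5 and 12.1 CPM in the WT replicates and 73.9, 61.3 and 54.3 CPM in the SIRPα KO replicates. Ireb2 rose by 1.64 on the log2 scale (SE 0.28, edgeR adjusted p = 0.0178), whereas Aco1 was at 0.24. Tfrc, the transferrin receptor, rose by 1.35 (SE 0.20, edgeR adjusted p = 0.0133), from 201 ± 55.2 to 512 ± 16.6 CPM (SD, n = 3). Ftl1, the ferritin light chain, fell by 0.48 on the log2 scale (edgeR adjusted p = 0.0351), with near-identical ferritin pseudogenes not examined here. Ireb2 (1.10, adjusted p = 0.0164) and Tfrc (0.85, adjusted p = 0.00311) were also called with the length and GC offset in edgeR, and Ftl1 was at 0.16 (adjusted p = 0.146), on the other side of 0. None of the 9 iron genes was called (0 by edgeR) without any 1 of the SIRPα KO replicates, where 3 to 6 had an unadjusted p under 0.05, or with codes summed, where 3 did. Those fits called 10 to 17 of all genes, with 2935 to 3359 at an unadjusted p under 0.05.

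Of the 12 genes that handle citrate, NADPH and 2-oxoglutarate, Me1 alone was called (11.7% of all genes), against 5 in DESeq2 (3118 of 13623 genes), 4 with the length and GC offset (1134 of 13496) and 0 without any 1 of the SIRPα KO replicates (16 or 17 of all genes). Me1 is the cytosolic malic enzyme, an NADPH source like Idh1, and rose by 0.82 on the log2 scale (SE 0.14, edgeR adjusted p = 0.0175). Acly, which cleaves cytosolic citrate, was at 0.69 (edgeR adjusted p = 0.0700) and the mitochondrial citrate carrier Slc25a1 at -0.0076. With the offset Slc25a1 was at 0.43 and called higher (edgeR adjusted p = 0.0459). Of the 3 other genes tested whose enzymes use or form succinyl-CoA, 0 were called at the adjusted threshold by edgeR. At an unadjusted p under 0.05 there was 1, against 32% of all genes. This was Mmut, the methylmalonyl-CoA mutase, at 0.95 (edgeR adjusted p = 0.0647), and DESeq2 called 1 of the 3, against 3118 of all 13623 genes.

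The genes whose normalized counts followed those of an isozyme gene most closely over the 6 libraries were taken by the root mean square difference of centred log2 CPM, among 9147 genes. For Idh3a they included Dhx30 (0.049) and Usp16 (0.052). For Suclg2 they were Dop1a (0.147), Cdk5rap1 (0.147) and Orc5 (0.150). For Idh1 they were Dstyk (0.131), Slc12a7 (0.131) and Lmtk2 (0.194). None of the 9 isozyme genes was among these. These are descriptions of 6 libraries, which share scaling and amplification, with no test.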

How the data were processed

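Bulk RNAseq of cultured lung ILC2s was analysed in 6 libraries, 3 of each genotype. The authors prepared cDNA with a low-input kit, processed the reads in Partek and STAR (Partek 10.0 and STAR 2.7.8 in the submitters' processing notes), aligned them to mm10 with GENCODE M21, and deposited estimated counts per gene, not scaled for library size. Whether strand was used, and how reads on repeated sequence were assigned, is not given in the sources used here. Libraries held 13980499 to 19051507 reads on genes, and 56.9% to 60.7% of values were whole numbers. In the record of columns 93 gene columns are named singly, and the 17738 others hold the same unit.

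Counts were rounded, filtered with filterByExpr (minimum count 10, minimum total 15), then TMM scaling was applied and genes were tested on genotype alone by edgeR's quasi-likelihood test, with Benjamini-Hochberg adjustment over 13623 genes and a threshold of 0.05. The SE came from the F statistic. The software was edgeR 4.0.16 in R 4.3.3, DESeq2 1.42.0, limma 3.58.1, Python 3.11.15, matplotlib 3.10.9, BLAST+ 2.17.0 and Biopython 1.88. Ratios were log2 of reads plus 0.5 and were compared by two-sided exact permutation tests, adjusted over 9 ratios. The offset fitted splines with 5 degrees of freedom on transcript length and GC content to 9054 genes. The procedures were tested on simulated data. Of the symbols, 17400 were found in GENCODE M21 as written, 212 by a synonym and 219 not at all. Promoters came from RefSeq (GRCm38.p6), with an entry for 8 of the 9 genes.

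The isozyme genes and the other lists were chosen by role, with earlier results of these data known. From the other lists the genes named are those past the threshold and some fixed by role, and Sdhb, Sdhc, Sdhd and Mmut, named after their values were seen. For each of Idh3a, Suclg2 and Idh1 the 3 genes most like it were taken, and 1 of these is not reported here. Alternatives were DESeq2, other scalings, filters and thresholds, leaving out each library, a replicate block, codes summed, and the length and GC offset. Coding length and the addition of pseudogene reads were alternatives chosen after seeing the data.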

Additional observations from a re-analysis of the deposited data

How the results depend on the processing

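Over the 15 alternative fits of each isozyme gene, Idh3a, Suclg2, Sucla2, Idh1 and Aco1 stayed above 0, and the calls of Idh3a and Suclg2 were lost in 5 and 9 fits. With the length and GC offset the log2 fold changes of Idh2 (0.15), Idh3g (0.31) and Suclg1 (0.051) turned to above 0, and the log2 ratio differences of Idh3b to Idh3g (-0.00093) and of cytosolic to mitochondrial genes (-0.022) turned to below 0. Idh3b was at -0.051 with upper quartile factors (median over all genes then -0.13), at -0.0088 with the stricter filter and at -0.019 without WT replicate 1, in a range of -0.019 to 0.12 without 1 library. Idh3g was at 0.067 without WT replicate 3 and at 0.0016 without SIRPα KO replicate 2, in a range of -0.093 to 0.067. The cause was not tested.

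The fit of the report called 1600 genes, DESeq2 3118, the fit with codes summed 10, and thresholds of 0.1 and 0.01 gave 3054 and 76. Leaving out 1 library gave 16 to 2606, the lowest 3 counts (16, 17 and 17) without a SIRPα KO replicate and the highest without WT replicate 3. The isozyme genes called were 1 with upper quartile factors (1713 of 13623 genes), no filter (1151 of 17831) or the offset (1134 of 13496), 0 with codes summed or a threshold of 0.01, and 0 to 2 without 1 library. Of the 15 other cycle enzymes (2 called), DESeq2 called 8, the stricter filter 4, codes summed 0, thresholds of 0.1 and 0.01 called 9 and 0, and fits without 1 library 0 to 11. Of the 24 neighbouring genes (4 called), these were 10, 8, 0, 10 and 0, and 0 to 11, with 7 under the offset. The stricter filter tested 23 of these 24 genes and called 2056 of all 9148 genes.

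Replicate numbers did not pair the samples, since same-numbered deviations correlated at -0.139, 0.183 and 0.031 over 9147 genes. With the replicate number as a block, 1118 genes were called, 0 isozyme genes (adjusted p = 0.0533 for Idh3a and 0.0649 for Suclg2 in edgeR), 1 other cycle enzyme and 4 neighbouring genes.

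With codes summed, no ratio can go below an exact p of 0.333. Leaving out 1 library left the ratio differences at 0.49 to 1.84 (Idh1 to Idh2), 0.36 to 0.58 (Idh3a to Idh3b), 0.41 to 0.63 (Idh3a to Idh3g), -1.27 to -0.80 (Suclg1 to Suclg2) and -0.61 to -0.36 (Suclg1 to Sucla2). Per kb of coding sequence the share of Suclg2 was 27.6% in WT and 35.6% in SIRPα KO. That of Idh1 was 19.1% in WT and 31.9% in SIRPα KO. Idh1 had as few as 37 reads in a library.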
